A study of Mus musculus with 6 samples.

Results

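Histone genes were read out in 6 RNA sequencing libraries of Neuro-2a, a line grown from a mouse neuroblastoma, a tumour of the sympathetic nerve lineage. The members were all rows of the expression table whose symbol began with Hist1h to Hist4h, H2af, H3f3 or H1f, 83 of 21878 rows. Of these, 67 carried a Hist prefix and are called replication-dependent histone genes here, and 16 are called variant histone genes. The libraries fell into 3 groups of 2: overexpression of lncPim1 (a long noncoding RNA), knockdown of the same RNA through RNA interference, and control, whose treatment is labelled wild type. All were the same cell line, and the labels name neither an empty vector nor a scrambled RNA for the controls. Total RNA went into a stranded kit that selects poly(A) RNA. Whether a group's 2 libraries are separate cultures is not labelled, and p-values here measure the spread between libraries alone, which may be technical. lncPim1 itself was not analysed here.

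Replication-dependent histone genes supply the bulk of histone protein while DNA is copied. They stand in clusters of near-identical copies without introns, and most of their mRNAs end in a short stem-loop rather than a poly(A) tail. The stem-loop binding protein SLBP and the U7 small nuclear ribonucleoprotein cut the transcript there, and the mRNA is degraded when DNA synthesis stops. Variant histones are made throughout the cell cycle from ordinary polyadenylated mRNAs with introns in most cases, and they replace the standard histones at promoters, enhancers, damaged DNA or silent chromatin. A library made from poly(A) RNA therefore holds the polyadenylated variant mRNAs but, of the replication-dependent class, only molecules that carry an A-rich or polyadenylated end. A level given here for a Hist gene is the level of that polyadenylated RNA, not of the whole mRNA. The same limit applies to the variant H2afx, whose transcript model also holds the stem-loop. Because the cells were measured in bulk, fewer cells of a kind and less RNA per cell cannot be told apart.

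The stem-loop is shown here because it sets the 2 classes apart. In GENCODE release M 21 (GRCm38), where all 83 members were found by symbol or identifier, a stem-loop of 16 bases stood after the stop codon in 46 of the 67 replication-dependent genes and in 1 of the 16 variant genes, H2afx. It was searched as 6 paired stem bases (G-T pairs allowed) around a loop TNTN. The stem had to begin with GG, end with CC and close on a T-A pair. Every transcript of a member was searched, but only the longest of each other coding gene, of which 0.161% held it. Capitals mark the paired stem and the lower-case letters are the loop, all read 5′ to 3′ on the mRNA's strand.
Hist3h2ba: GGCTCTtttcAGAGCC
Hist1h1c: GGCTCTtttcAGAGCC
Hist2h4: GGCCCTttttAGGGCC
Hist4h4: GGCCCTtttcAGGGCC
Hist1h3g: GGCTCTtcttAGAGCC
H2afx: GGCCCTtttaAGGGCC
The stem differed between these genes in a single pair of bases, and the loop in its letters. In 23 of the 46 genes the annotated transcript ran more than 100 bases past the stem-loop, by 169 bases in Hist3h2ba, 840 in Hist1h1c, 1257 in Hist2h4, 1643 in Hist3h2a, 2445 in Hist4h4 and 4884 in Hist1h1d. The other 21 members had no match in their model, which says nothing of the true ends of their RNA.

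The promoters were compared in the same way, using RefSeq sequences of 300 bases (250 before and 50 after the start, GRCm38.p6), which were found for 62 of the 67 replication-dependent and 15 of the 16 variant members. The letters TATAAA stood on either strand in 55.6% of 63 replication-dependent promoters, in 6.67% of 15 variant promoters and in 13.6% of all 32851 promoters. CCAAT stood in 85.7% of the replication-dependent, 66.7% of the variant and 37.4% of all promoters. By type, CCAAT was in all replication-dependent H1, H2A, H2B and H3 promoters and in 3 of the 12 H4 promoters. The octamer ATTTGCAT stood in 38.9% of the H2A and 41.2% of the H2B promoters, in no H1, H3 or H4 promoter of the class, and in 1.74% of all promoters. Divergent H2A and H2B pairs share their promoter, so these are not independent. In the following promoters, chosen because the expression results turn on these genes, capitals mark the 3 motifs on either strand, and each is printed on the gene's own strand. No motif overlaps another in them, and a match is a description of letters, not evidence of binding.
Hist2h2bb, chr3:96269450-96269749 (+): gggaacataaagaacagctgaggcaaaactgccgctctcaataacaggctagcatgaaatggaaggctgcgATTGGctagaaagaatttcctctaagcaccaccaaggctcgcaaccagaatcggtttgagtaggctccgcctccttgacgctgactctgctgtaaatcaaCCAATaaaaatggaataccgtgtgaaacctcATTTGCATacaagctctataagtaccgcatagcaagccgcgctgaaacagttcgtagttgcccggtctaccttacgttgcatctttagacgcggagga
Hist3h2ba, chr11:58948661-58948960 (+): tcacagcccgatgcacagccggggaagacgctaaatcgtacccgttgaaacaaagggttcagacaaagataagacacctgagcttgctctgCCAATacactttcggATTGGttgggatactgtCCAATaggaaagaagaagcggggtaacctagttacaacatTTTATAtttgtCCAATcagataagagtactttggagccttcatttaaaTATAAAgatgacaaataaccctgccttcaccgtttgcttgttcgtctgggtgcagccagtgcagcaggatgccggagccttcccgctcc
Hist1h4k, chr13:21750504-21750803 (-): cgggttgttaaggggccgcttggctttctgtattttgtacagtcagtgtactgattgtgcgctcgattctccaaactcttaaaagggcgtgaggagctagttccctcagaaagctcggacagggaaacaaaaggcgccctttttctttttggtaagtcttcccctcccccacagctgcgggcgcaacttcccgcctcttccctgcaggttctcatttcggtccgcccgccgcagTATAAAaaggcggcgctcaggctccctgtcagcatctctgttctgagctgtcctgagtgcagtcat
H3f3b, chr11:116024455-116024754 (-): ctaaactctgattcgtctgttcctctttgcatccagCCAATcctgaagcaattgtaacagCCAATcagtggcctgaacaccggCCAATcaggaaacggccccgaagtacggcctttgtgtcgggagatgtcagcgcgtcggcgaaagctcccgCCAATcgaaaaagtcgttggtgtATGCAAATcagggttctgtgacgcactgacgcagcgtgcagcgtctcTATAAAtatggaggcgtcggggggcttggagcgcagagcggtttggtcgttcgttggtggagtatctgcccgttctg
The Hist2h2bb promoter held the octamer and a CCAAT on each strand, the Hist3h2ba promoter held TATAAA on both strands and 4 copies of CCAAT, and the Hist1h4k promoter held TATAAA alone. The promoter of the variant gene H3f3b held 4 copies of CCAAT, the octamer on its reverse strand and TATAAA, and was the 1 variant promoter of the 15 with TATAAA or with the octamer.

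Values are FPKM, fragments scaled to transcript length and to each library's mapped fragments, as the authors deposited them. Summed FPKM over all rows were 294510 and 303139 in the overexpression libraries, 277508 and 272528 in the knockdown libraries, and 298032 and 305463 in the control libraries. Across the 10721 genes averaging 1 FPKM or more, libraries of one group correlated at Spearman 0.995 to 0.997. Libraries of different groups correlated at 0.976 to 0.994. These are correlations across genes and not over replicates. The test covered the 10721 genes whose 6 libraries averaged 1 FPKM or more, with limma on log2(FPKM + 1) and Benjamini-Hochberg adjustment, and a gene is called when its adjusted p is under 0.05. All log2 differences given here are on the log2(FPKM + 1) scale, which shrinks those of low genes. Of the 12 fixed markers of neuroblastoma and sympathetic neurons, 11 were tested, and the summed levels of all 12 were 1067 and 1206 FPKM in overexpression, 997 and 971 in knockdown, and 1292 and 1250.0 in control libraries. Summed over 9 digestive tract markers, the level was 21.5 and 30.9 FPKM in overexpression and 0.596 and 0.419 in knockdown libraries. It was 29.0 and 22.0 in control libraries. All 9 were called lower in knockdown against control, where 31.3% of all genes tested were. Reg1, Reg3b, Fabp1 and Zg16 were listed at 0 in both knockdown libraries. Macrophage, fibroblast and glia marker sums lay between 1.11 and 6.997 FPKM in every library, and the macrophage marker Lyz2 and the digestive marker Reg3b were called lower in both comparisons against control. The part of these other markers in the histone results was not tested.

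The 2 classes stood far apart in level. Summed over its 16 members, the variant class reached 1470 and 1607 FPKM in overexpression, 1315 and 1266 in knockdown, and 1703 and 1713 in control libraries. Summed over 67 members, the replication-dependent class reached 42.8 and 40.8 FPKM in overexpression, 55.7 and 67.7 in knockdown, and 33.8 and 36.7 in control libraries. No group overlapped another in either sum, and the 2 classes went opposite ways in the knockdown libraries: the replication-dependent sum was highest and the variant sum lowest there. As log2 ratios of group means, the replication-dependent sum differed by 0.25 in overexpression against control and 0.81 in knockdown against control, and the variant sum by -0.15 in overexpression against control and -0.40 in knockdown against control. Replication-dependent genes thus made up 2.83% and 2.48% of all histone FPKM in overexpression, 4.06% and 5.07% in knockdown, and 1.94% and 2.10% in control libraries. All histone members together took 0.489% to 0.583% of a library's FPKM.

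**Figure D1:**
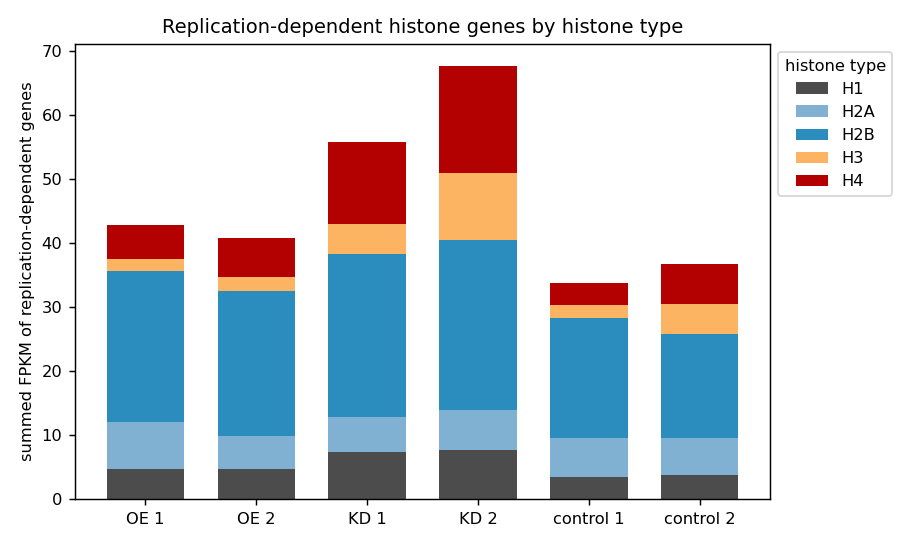
Stacked bars of the summed FPKM of the 67 replication-dependent histone genes, 1 bar per library (OE, overexpression; KD, knockdown; control), with a colour for each histone type. The KD bars reach 55.7 and 67.7 FPKM, above the 40.8 to 42.8 of OE and the 33.8 to 36.7 of control, and their H4 part is the tallest of the 3 groups.

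By histone type, the sums of the replication-dependent genes did not move alike. The 6 genes of the linker histone H1, which binds the DNA between nucleosomes, summed to 4.59 and 4.69 FPKM in overexpression, 7.36 and 7.57 in knockdown, and 3.48 and 3.81 in control libraries. The 13 genes of H4, the core histone that pairs with H3, summed to 5.30 and 6.21 FPKM in overexpression, 12.7 and 16.7 in knockdown, and 3.49 and 6.32 in control libraries. For both types the knockdown libraries stood above all others. The 12 genes of H3, whose tail carries many regulatory marks, summed to 2.01 and 2.09 FPKM in overexpression, 4.70 and 10.6 in knockdown, and 2.09 and 4.65 in control libraries, with the 2 knockdown libraries far apart. The 18 genes of H2B, the partner of H2A, summed to 23.5 and 22.7 FPKM in overexpression, 25.6 and 26.4 in knockdown, and 18.7 and 16.3 in control libraries. The 18 genes of H2A summed to 7.40 and 5.11 FPKM in overexpression, 5.38 and 6.35 in knockdown, and 5.996 and 5.64 in control libraries. So the H2A sums overlapped between all groups, and H2B was higher in both lncPim1 groups than in control.

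The genes lie in 4 clusters. The 54 members of the Hist1 cluster (chr13:21715763-23934851) summed to 14.8 and 14.8 FPKM in overexpression, 26.2 and 35.0 in knockdown, and 12.2 and 16.2 in control libraries. The 10 members of the Hist2 cluster (chr3:96219865-96270132) summed to 5.22 and 6.28 FPKM in overexpression, 10.5 and 12.6 in knockdown, and 3.84 and 4.87 in control libraries. In both clusters the knockdown libraries stood above all others. The 2 members of the Hist3 cluster (chr11:58948920-58956830) summed to 22.4 and 19.5 FPKM in overexpression, 17.2 and 18.4 in knockdown, and 17.7 and 15.6 in control libraries, where knockdown and control overlapped. The single gene Hist4h4 (chr6:136801553-136804415, minus strand) is described with the H4 genes.

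Of the 67 replication-dependent genes, 10 passed the filter and were tested, 47 had a value above 0 but stayed under it, and 10 were listed at 0 in all 6 libraries. In knockdown against control, 6 of the 10 rose, 1 fell and 3 were not called, where 46.2% of all genes tested were called (14.8% higher and 31.3% lower). After median ratio scaling 2245 genes were called higher and 2286 lower in that comparison, and after quantile normalization 2003 and 2292, in place of 1590 and 3358, so the split of calls over all genes depends on the scaling. The 10 members gave 8 higher and 1 lower after median ratio scaling and 5 higher and 1 lower after quantile normalization. In overexpression against control, 1 of the 10 rose and 9 were not called, where 1.54% of all genes tested were called, 0.69% higher and 0.849% lower. In overexpression against knockdown, 1 of the 10 was higher, 3 were lower and 6 were not called, where 40.5% of all genes tested were called, 28.1% higher and 12.4% lower (3013 and 1332 genes, or 1951 and 1908 after median ratio scaling and 1930 and 1707 after quantile normalization). Hist1h3i, Hist2h2bb and Hist2h4 passed the filter only through their knockdown libraries and so had to be higher there. Both comparisons against control share the 2 control libraries, and both comparisons with knockdown share its 2 libraries. Libraries of a pair of groups that do not overlap are common in this table: of all genes tested, 26.5% lay higher and 47.9% lower without overlap in knockdown against control, 23.3% and 26.2% in overexpression against control, and 47.2% and 24.7% in overexpression against knockdown.

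Among the tested H2B genes, Hist3h2ba (ENSMUSG00000056895.4, chr11:58948920-58949533, plus strand) had the highest level of the class. It reached 19.0 and 17.9 FPKM in overexpression, 17.2 and 17.3 in knockdown, and 14.7 and 13.0 in control libraries. Both control libraries were lower than all others, and both overexpression libraries higher than the knockdown ones. It rose by 0.39 ± 0.07 on the log2 scale in overexpression (limma, SE, n = 2 libraries a group, adjusted p = 0.0328) and by 0.30 ± 0.07 in knockdown (adjusted p = 0.00712). The overexpression call was lost without any 1 of the 4 libraries of that comparison (limma, adjusted p 0.0787 to 0.201) and the knockdown call without control 2 (adjusted p = 0.0559). Of its transcript's windows of 75 bases, 13.9% also occurred in the pseudogene Hist3h2bb-ps.

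Hist2h2be (ENSMUSG00000068854.7, chr3:96221119-96223738, plus strand) encodes an H2B that in mouse olfactory neurons is known to be made outside S phase. It stood at 1.72 and 1.49 FPKM in overexpression, 3.70 and 4.13 in knockdown, and 1.64 and 1.39 in control libraries. The knockdown libraries lay well above the other 4, which overlapped. It rose by 0.97 ± 0.09 in knockdown against control (limma, adjusted p = 0.000186), a call kept under every alternative that tested it, and in overexpression against control the difference was 0.05 ± 0.09 (adjusted p = 0.835). Its annotated transcript of 2620 bases shared no 75-base window with another gene. Hist2h2bb, whose promoter held the octamer, stood at 1.05 and 1.38 FPKM in overexpression, 1.65 and 2.40 in knockdown, and 0.155 and 0.942 in control libraries, with no overlap between the groups. It was higher by 1.00 ± 0.22 in knockdown against control (limma, adjusted p = 0.00679), and it overlaps Gm42743 on the same strand and Gm20628 on the other. Hist2h2bb passed the filter only through its knockdown libraries, so its direction was fixed by its being tested.

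The 2 tested H2A genes went different ways from these. Hist3h2a (ENSMUSG00000078851.4, chr11:58954685-58956830, plus strand), the neighbour of Hist3h2ba, stood at 3.35 and 1.58 FPKM in overexpression, 0.0474 and 1.12 in knockdown, and 3.02 and 2.66 in control libraries. Both knockdown libraries were below all others. It fell by 1.36 ± 0.32 on the log2 scale in knockdown against control (limma, adjusted p = 0.00822) and was higher by 1.17 ± 0.32 in overexpression against knockdown (adjusted p = 0.0189), where the call was lost without overexpression 1 (0.112) or knockdown 1 (0.0939). It overlaps Trim17 on the same strand and Gm44313 on the other, so reads may have been shared between them, and Trim17 stood at 0.317 and 0.203 FPKM in overexpression, 0.697 and 0.835 in knockdown, and 0.213 and 0.195 in control libraries. Hist2h2aa1 stood at 1.39 and 2.02 FPKM in overexpression, 1.59 and 0.958 in knockdown, and 1.05 and 1.85 in control libraries. All 3 groups overlapped, and 96.1% of its 75-base windows also occurred in other genes, so its reads cannot be assigned to 1 copy with certainty.

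Hist1h1c, which encodes the linker histone H1.2, was the only tested H1 gene of the class. It stood at 3.18 and 3.11 FPKM in overexpression, 3.07 and 3.02 in knockdown, and 2.501 and 2.72 in control libraries. Control was lowest without overlap, but the differences of 0.20 ± 0.07 in overexpression and 0.16 ± 0.07 in knockdown were not called (limma, adjusted p = 0.226 and 0.102). The knockdown difference was called after median ratio scaling (adjusted p = 0.0369). Among the untested H1 genes, Hist1h1d (H1.3) stood at 0.0823 and 0.192 FPKM in overexpression, 1.41 and 2.36 in knockdown, and 0.0854 and 0.174 in control libraries. The knockdown libraries lay far above the other 4. Hist1h1e (H1.4) had 0.481 and 0.756 FPKM in overexpression, 1.39 and 0.883 in knockdown, and 0.663 and 0.171 in control libraries. Hist1h1b (H1.5) had 0.776 and 0.361 FPKM in overexpression, 1.18 and 0.789 in knockdown, and 0.157 and 0.655 in control libraries. For both, knockdown was above overexpression and control without overlap.

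Hist1h3i was the only tested H3 gene of the class. It stood at 0.664 and 0.259 FPKM in overexpression, 2.57 and 3.89 in knockdown, and 0 and 0.472 in control libraries. Knockdown stood above the other 4 libraries, by 1.78 ± 0.22 against control (limma, adjusted p = 0.000445), and overexpression was lower than knockdown by 1.53 ± 0.22 (adjusted p = 0.00126). Hist1h3i passed the filter only through its knockdown libraries, so this direction was fixed by its being tested. Its model shared 78.3% of its 75-base windows with 13 other genes, so the value may belong in part to other H3 copies. Among the untested H3 genes, Hist1h3g had 0.225 and 0 FPKM in overexpression, 0.686 and 1.45 in knockdown, and 0.701 and 0.960 in control libraries. Hist1h3h had 0.444 and 0.779 FPKM in overexpression, 0.233 and 1.85 in knockdown, and 0.233 and 1.66 in control libraries. Hist1h3e had 0 and 0 FPKM in overexpression, 0 and 0.643 in knockdown, and 0.489 and 1.25 in control libraries. Hist1h3c had 0.448 and 0.789 FPKM in overexpression, 0 and 1.04 in knockdown, and 0.236 and 0.239 in control libraries. Knockdown overlapped control for all 4 of these copies.

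Among the tested H4 genes, Hist2h4 (ENSMUSG00000091405.2, chr3:96261682-96263311, minus strand) stood at 0 and 1.38 FPKM in overexpression, 2.01 and 2.80 in knockdown, and 0.235 and 0 in control libraries. Hist1h4k stood at 1.71 and 0.566 FPKM in overexpression, 1.75 and 2.41 in knockdown, and 0.709 and 1.04 in control libraries. Hist1h4i stood at 1.11 and 1.59 FPKM in overexpression, 1.86 and 1.21 in knockdown, and 1.11 and 0.721 in control libraries. Knockdown was above control without overlap in all 3, and overexpression overlapped knockdown for Hist1h4i alone. Hist2h4 was higher by 1.61 ± 0.33 in knockdown against control (limma, adjusted p = 0.0048) and Hist1h4k by 0.72 ± 0.23 (adjusted p = 0.0318). The 0.40 ± 0.16 of Hist1h4i was not called (limma, adjusted p = 0.0664), except after median ratio scaling (0.0477). Hist2h4 passed the filter only through its knockdown libraries, so its direction was fixed by its being tested. The Hist1h4k call was lost without knockdown 2, without control 1 or without control 2 (limma, adjusted p = 0.153, 0.154 and 0.0582) and after quantile normalization (0.117). Hist2h4 shared no 75-base window with another gene, whereas 68.1% of the Hist1h4k and 22.4% of the Hist1h4i windows occurred in 11 other genes each.

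**Figure D2:**
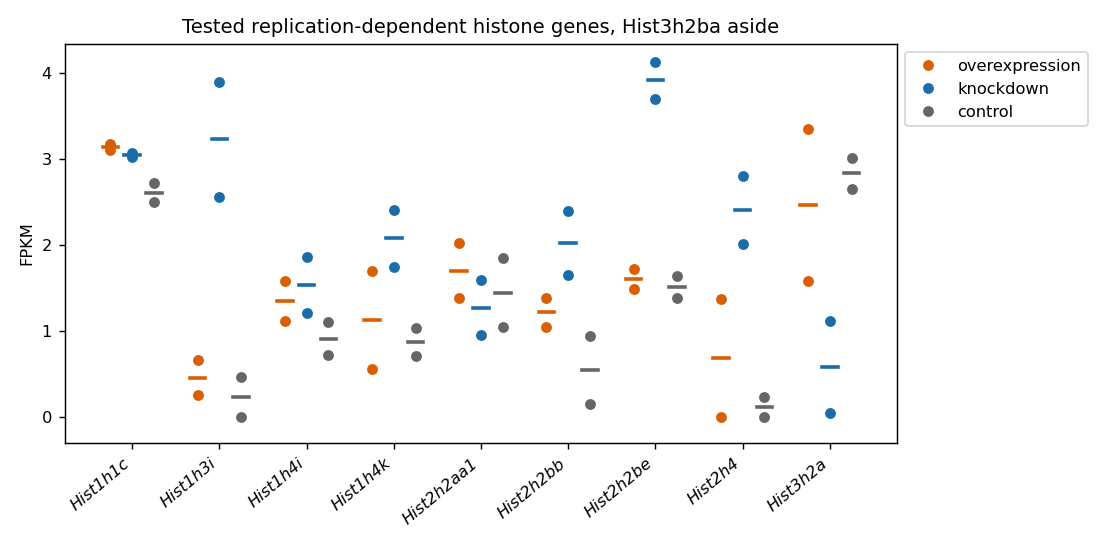
FPKM of 9 tested replication-dependent histone genes, 1 point per library and a line at the group mean, with overexpression, knockdown and control from left to right within each gene; Hist3h2ba, at 13.0 to 19.0 FPKM, is left out for scale. Hist1h3i, Hist2h2be and Hist2h4 have both knockdown libraries above all others, and Hist3h2a has both below. Hist1h3i, Hist2h2bb and Hist2h4 passed the filter only through their knockdown libraries.

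Of the H4 genes below the filter, Hist4h4 (ENSMUSG00000096010.2) stood at 0.400 and 0.230 FPKM in overexpression and 1.84 and 1.69 in knockdown, and was listed at 0 in both control libraries. Hist1h4f stood at 0.895 and 1.32 FPKM in the knockdown libraries and was listed at 0 in the 2 overexpression and the 2 control libraries. Hist1h4c stood at 0 and 0.324 FPKM in overexpression, 1.18 and 1.01 in knockdown, and 0.548 and 0.296 in control libraries. In these 3 genes knockdown lay above the other groups without overlap. Hist1h4a stood at 0 and 0.215 FPKM in overexpression, 0.746 and 1.63 in knockdown, and 0 and 1.17 in control libraries. Hist1h4d stood at 0.561 and 0.329 FPKM in overexpression, 0.605 and 1.54 in knockdown, and 0 and 0.899 in control libraries. Hist1h4j stood at 0.229 and 0.800 FPKM in overexpression, 0.468 and 2.07 in knockdown, and 0.445 and 1.46 in control libraries. In these 3, knockdown overlapped control because the second control library was high in each. Hist1h4h, with 0.899 and 0 FPKM in overexpression, 0.470 and 0.608 in knockdown, and 0.445 and 0.729 in control libraries, showed no separation.

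Among the untested H2A and H2B genes, Hist2h2ac had 0.423 and 0 FPKM in overexpression, 0.872 and 1.55 in knockdown, and 0 and 0.454 in control libraries. Hist1h2bm had 0.160 and 0.371 FPKM in overexpression, 0.800 and 1.03 in knockdown, and 0 and 0.505 in control libraries. Hist1h2bc had 0.939 and 1.37 FPKM in overexpression, 0.243 and 0.0723 in knockdown, and 0.725 and 0.331 in control libraries. The first 2 were highest in knockdown without overlap, and Hist1h2bc was lowest there, the only untested member of the class with both knockdown libraries below both control libraries. Hist1h2ak had 0.185 and 0.433 FPKM in overexpression, 0.942 and 0.512 in knockdown, and 0.770 and 0.197 in control libraries. Hist1h2bk had 0 and 0 FPKM in overexpression, 0.494 and 0.606 in knockdown, and 0.510 and 0 in control libraries. Knockdown overlapped control in both. The other 28 untested members with a value above 0 stayed at or below 0.854 FPKM in every library.

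Over all 47 members under the filter, the knockdown libraries lay above both control libraries in 17 (36.2%), where 27% of the 6590 rows under the filter with a value above 0 did so, and below them in 1 (2.13%), where 17% did so. The overexpression libraries lay above both control libraries in 6 (12.8%, against 16.2% of such rows) and below them in 3 (6.38%, against 13.1%). Overexpression lay above both knockdown libraries in 2 (4.26%, against 17.6%) and below them in 20 (42.6%, against 25.3%). Near-identical copies can take each other's reads, so these members are not independent of each other. More members were found at all in the knockdown libraries, where 18 of the 67 were listed at 0 in each library. In the overexpression libraries 33 and 36 were at 0, and in the control libraries 32 and 36. Of all 21878 rows, 6561 and 6305 were at 0 in knockdown, 6483 and 6758 in overexpression, and 6685 and 6694 in control libraries. Depth, which bears on how many low rows are found, is unknown. A mean of at least 1 FPKM was reached by 9 members in overexpression, 20 in knockdown and 5 in control libraries. The share of all rows that reached it was not counted. With the filter lowered to 0.2 FPKM, 26 more members were tested. Of these, 9, Hist4h4, Hist1h4f and Hist1h1d among them, would not have passed without their knockdown libraries. Their knockdown mean therefore had to exceed the mean of their other 4 libraries. Among the 9, Hist1h2ai also needed its overexpression libraries to pass and Hist2h3b its control libraries. Of the 17 whose other 4 libraries also averaged 0.2 FPKM or more, 5 were called higher and none lower in knockdown against control, where 15.4% of all genes tested at that filter were called higher and 27.6% lower. Hist2h2ac was higher by 0.86 ± 0.23 (limma, adjusted p = 0.0169) and Hist1h1e by 0.60 ± 0.18 (adjusted p = 0.0267). With no filter, none of the 5 calls was kept (limma, adjusted p 0.0536 to 0.0923).

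How far copies resemble each other bears on every value of the class. At least 50% of the 75-base windows were shared with another gene in 27 of the 67 members, at least 90% in 7, and none in 7. The 16 members sharing under 10% summed to 11.8 and 11.1 FPKM in overexpression, 17.5 and 21.6 in knockdown, and 8.56 and 9.99 in control libraries. The 51 members sharing more summed to 31.1 and 29.7 FPKM in overexpression, 38.2 and 46.0 in knockdown, and 25.2 and 26.7 in control libraries. Knockdown was highest in both sets, at 2.11 and 1.62 times the control mean. The 9 members that share under 10% and overlap no other gene, the most certain assignments, summed to 6.79 and 7.36 FPKM in overexpression, 14.1 and 16.8 in knockdown, and 4.70 and 5.92 in control libraries, 2.92 times the control mean in knockdown. This set leaves out Hist3h2a, which fell in knockdown and overlaps Trim17. With Hist3h2a alone left out, the other 15 members sharing under 10% stood at 2.95 times the control mean in knockdown.

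**Figure D3:**
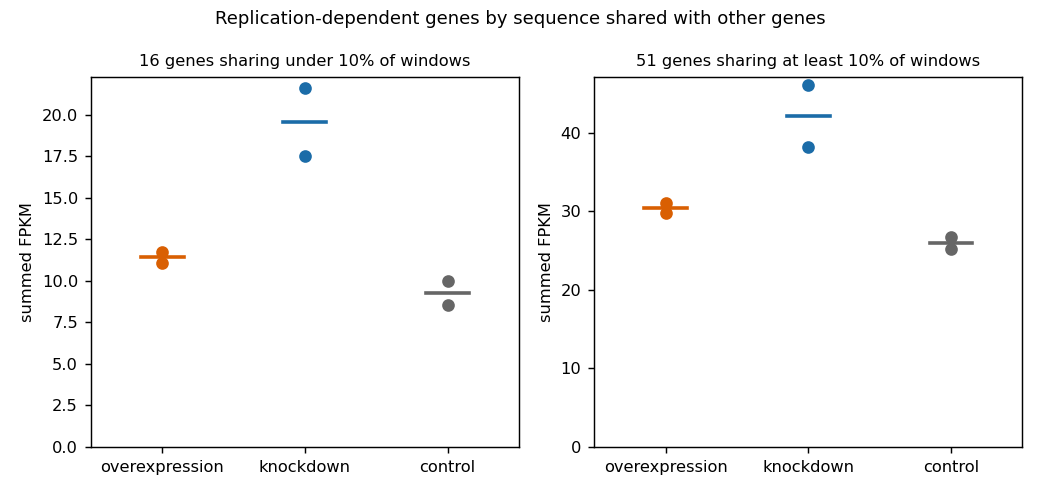
Summed FPKM of the replication-dependent genes, 1 point per library with a line at the group mean, for the 16 genes that share under 10% of their 75-base windows with other genes (left) and for the 51 that share more (right). In both panels the knockdown libraries lie highest and the control libraries lowest, with no overlap between groups.

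The annotated ends divided the class in another way. The 23 members whose model runs more than 100 bases past the stem-loop summed to 29.3 and 28.4 FPKM in overexpression, 32.9 and 38.2 in knockdown, and 24.5 and 24.6 in control libraries. The 23 members with a model ending sooner summed to 5.74 and 4.75 FPKM in overexpression, 7.90 and 10.4 in knockdown, and 3.73 and 4.84 in control libraries. The 21 members with no stem-loop in their model summed to 7.75 and 7.68 FPKM in overexpression, 14.9 and 19.1 in knockdown, and 5.57 and 7.24 in control libraries. Knockdown libraries were highest in each set, and they overlapped control in none.

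Among the variant genes, 10 of the 16 were tested. In knockdown against control 6 fell, none rose and 4 were not called, where 31.3% of all genes tested were called lower. Both knockdown libraries lay below both control libraries in 7 of the 10 (47.9% of all genes tested) and above them in none. After quantile normalization 4 were called lower and 2 higher, and after median ratio scaling 5 lower and 1 higher. In overexpression against control none was called with limma, where 1.54% of all genes tested were called. In overexpression against knockdown 4 were higher, 1 was lower and 5 were not called, where 28.1% of all genes tested were called higher and 12.4% lower.

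H3f3b and H3f3a encode the same H3.3 protein, which is laid down outside replication at active genes, promoters and telomeres. H3f3b (ENSMUSG00000016559.14, chr11:116021912-116027962, minus strand) had the highest level of all members, 495 and 537 FPKM in overexpression, 397 and 385 in knockdown, and 609.5 and 611 in control libraries. The 3 groups did not overlap, with knockdown lowest and control highest. It fell by 0.64 ± 0.05 on the log2 scale in knockdown against control (limma, adjusted p = 0.000138), and the -0.24 ± 0.05 in overexpression was not called (adjusted p = 0.0719), except after quantile normalization (0.0273). H3f3a (ENSMUSG00000060743.12, chr1:180800832-180813943, minus strand) stood at 364 and 389.6 FPKM in overexpression, 345 and 322 in knockdown, and 383 and 396 in control libraries. Knockdown was lowest, and overexpression overlapped control. The fall of H3f3a by 0.22 ± 0.06 in knockdown (limma, adjusted p = 0.013) was not called after either scaling (adjusted p = 0.0644 after median ratio scaling, 0.431 after quantile normalization) or without knockdown 2 (0.0937) or control 2 (0.0792). The ratio of H3f3b to H3f3a was 1.36 and 1.38 in overexpression and 1.15 and 1.19 in knockdown, against 1.59 and 1.54 in control libraries, which separated the 3 groups within each library's own scale. Overlapping antisense genes are annotated at H3f3a (H3f3aos and Gm17275).

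H3f3c, annotated as a processed pseudogene of this family, stood at 1.49 and 0.780 FPKM in overexpression, 2.44 and 1.78 in knockdown, and 1.91 and 1.99 in control libraries. It was lower by 0.55 ± 0.16 on the log2 scale in overexpression against knockdown (limma, adjusted p = 0.0239), a call lost without overexpression 2 (0.134) or knockdown 1 (0.140). Of its 75-base windows 59.9% occurred in other genes, so reads from its parent genes may be counted in it.

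H2A.Z, which marks promoters and enhancers, is made from H2afz and, at a lower level, H2afv. H2afz (ENSMUSG00000037894.13, chr3:137864487-137866922, plus strand) stood at 267 and 284 FPKM in overexpression, 231 and 226 in knockdown, and 288 and 304 in control libraries. The 3 groups did not overlap, and it fell by 0.37 ± 0.05 in knockdown against control (limma, adjusted p = 0.000857). H2afv stood at 12.2 and 15.5 FPKM in overexpression, 13.0 and 12.5 in knockdown, and 13.2 and 15.5 in control libraries, and its difference of -0.16 ± 0.11 in knockdown was not called (adjusted p = 0.251). Of the H2afz windows, 61.7% occurred in 6 other genes.

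H2afy encodes macroH2A1, a large form found on silent chromatin. It stood at 12.0 and 11.5 FPKM in overexpression, 9.39 and 8.85 in knockdown, and 12.2 and 11.9 in control libraries. Knockdown was lowest without overlap, by a fall of 0.37 ± 0.06 against control (limma, adjusted p = 0.00146), and overexpression was higher than knockdown by 0.33 ± 0.06 (adjusted p = 0.00299). H2afy2, which encodes macroH2A2, stayed under the filter with 0.844 and 1.04 FPKM in overexpression, 0.229 and 0.199 in knockdown, and 0.0367 and 0.0185 in control libraries. All 3 groups were apart, with overexpression highest and control lowest. H2afy2 overlaps Aifm2 on the other strand, which stood at 6.71 and 8.12 FPKM in overexpression, 7.54 and 7.26 in knockdown, and 7.14 and 6.72 in control libraries.

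The variant H2A genes with other roles were not called in any comparison of the values as deposited. H2afx (ENSMUSG00000049932.3, chr9:44334694-44336077, plus strand), whose product is phosphorylated around broken DNA and whose transcript model alone among the variants held the stem-loop, stood at 60.5 and 59.8 FPKM in overexpression, 59.3 and 55.0 in knockdown, and 55.6 and 53.2 in control libraries. Its overexpression libraries were above both control libraries, but neither the 0.14 ± 0.05 in overexpression (limma, adjusted p = 0.217) nor the 0.07 ± 0.05 in knockdown (adjusted p = 0.308) was called. In knockdown it was called higher after both scalings (limma, adjusted p = 0.0453 after median ratio scaling and 0.0102 after quantile normalization). These values cover polyadenylated H2afx RNA alone, since an mRNA that ends at the stem-loop would be left out. H2afj stood at 30.9 and 31.1 FPKM in overexpression, 28.7 and 32.7 in knockdown, and 27.8 and 30.02 in control libraries. Knockdown overlapped control, and the knockdown difference of 0.08 was called only after quantile normalization (adjusted p = 0.0428).

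The variant linker histone genes H1fx and H1f0, which are active in resting and differentiated cells as well as dividing ones, stood below control in both lncPim1 groups. H1fx stood at 119 and 145 FPKM in overexpression, 116 and 115 in knockdown, and 167 and 155 in control libraries. H1f0 stood at 107 and 132 FPKM in overexpression, 113 and 107 in knockdown, and 144 and 135 in control libraries. Control was highest in both genes without overlap. H1fx fell by 0.48 ± 0.08 in knockdown against control (limma, adjusted p = 0.00232) and H1f0 by 0.34 ± 0.09 (adjusted p = 0.0147), and the H1f0 call was lost after quantile normalization (0.113) and without knockdown 2 (0.0723) or control 1 (0.0901). The overexpression differences of -0.29 ± 0.08 and -0.23 ± 0.09 were not called (adjusted p = 0.136 and 0.246). Of the remaining variants, H1fnt, H2afb2 and H2afb3 were listed at 0 in all 6 libraries, and H1foo and H2afb1 stayed under 0.5 FPKM in every group.

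**Figure D4:**
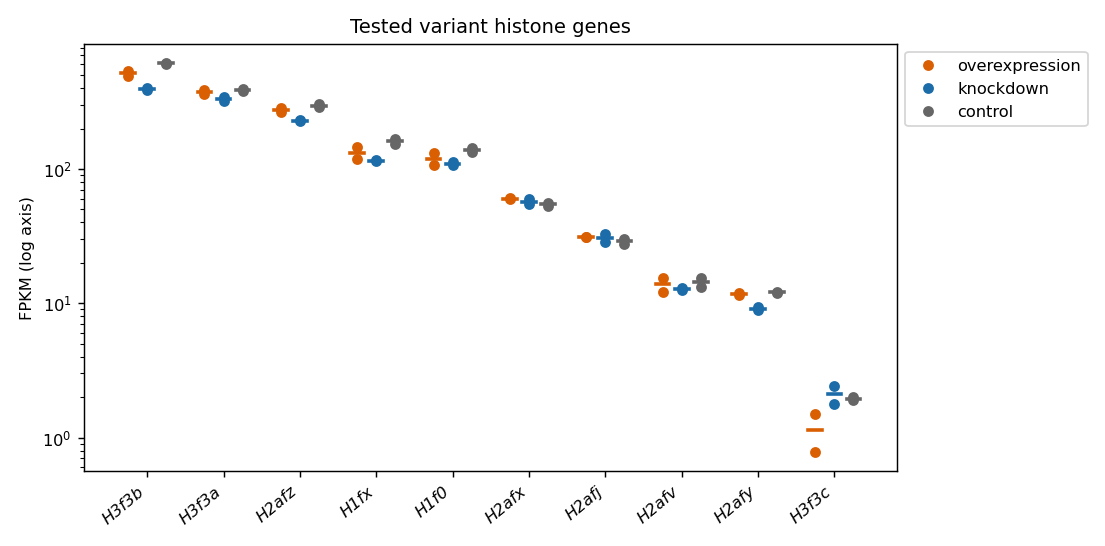
FPKM of the 10 tested variant histone genes on a log axis, 1 point per library and a line at the group mean, with overexpression, knockdown and control from left to right within each gene. H3f3b, H2afz, H1fx and H2afy have both knockdown libraries below both control libraries, while H2afj and H2afx overlap there.

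**Figure D5:**
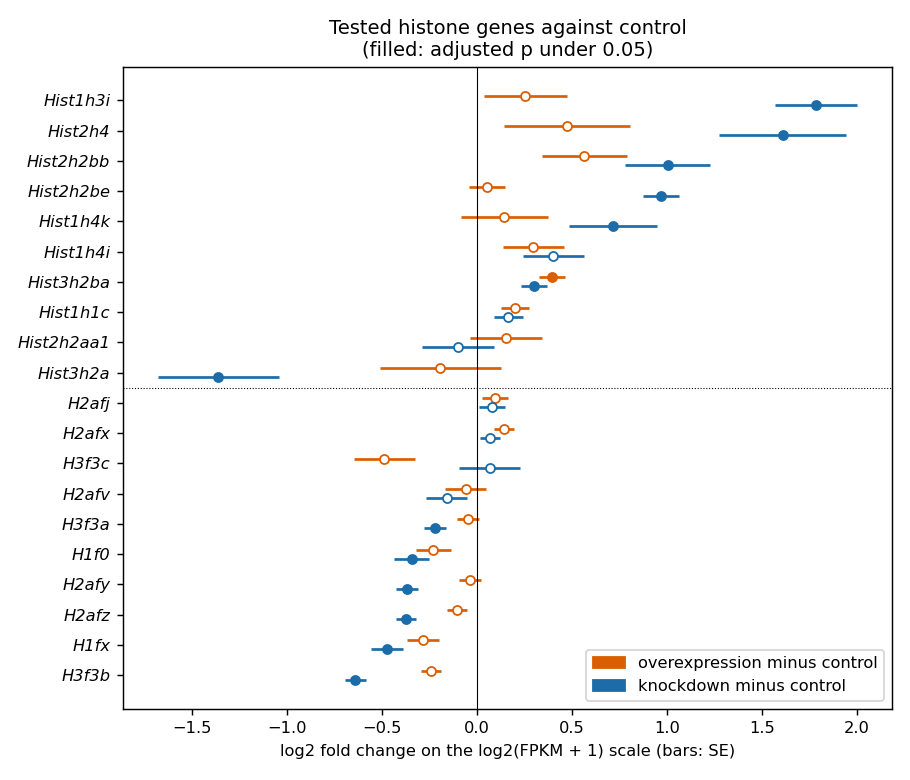
Difference from control on the log2(FPKM + 1) scale (x axis) for each tested histone gene in overexpression and in knockdown, with bars for the standard error and filled symbols for an adjusted p under 0.05 (limma); the dotted line parts replication-dependent from variant genes. Filled knockdown symbols lie above 0 for 6 replication-dependent genes and below 0 for Hist3h2a and 6 variant genes. Hist1h3i, Hist2h2bb and Hist2h4 passed the filter only through their knockdown libraries, so their direction was fixed.

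The lists of genes that make, cut, degrade and deposit histones were read from the same fit. Of 38 S-phase genes, 25 fell in knockdown against control, none rose and 13 were not called, where 31.3% of all genes tested were called lower. Their median was -0.21, where that of all genes tested was -0.07. Ccna2, the cyclin of S and G2 phase, stood at 86.7 and 87.9 FPKM in overexpression, 69.6 and 66.0 in knockdown, and 95.9 and 94.7 in control libraries, a fall of 0.49 ± 0.05 (limma, adjusted p = 0.000186). Dut, which clears dUTP, fell by 0.41 ± 0.06, and the replicative helicase genes Mcm2 and Mcm5 each by 0.31 ± 0.05. After median ratio scaling 14 of the 38 (36.8%) were lower and none higher, where 21.3% of all genes were lower. After quantile normalization 7 (18.4%) were lower and 1 higher, where 21.4% of all genes were lower, a share near that of the list. The replication-dependent sum was highest in the same libraries, and the part of S-phase genes in it was not tested. No S-phase gene was called in overexpression against control (limma), where 1.54% of all genes tested were called.

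Of 24 tested genes for histone gene transcription and 3′ end cutting, 13 fell in knockdown, 1 rose and 10 were not called, with a median of -0.19, where 31.3% of all genes tested were called lower and 14.8% higher. The cap-binding gene Ncbp2 stood at 18.7 and 18.7 FPKM in overexpression, 13.1 and 13.0 in knockdown, and 18.8 and 17.9 in control libraries, a fall of 0.47 ± 0.05 (limma, adjusted p = 0.000323), and the scaffold gene Sympk fell by 0.41 ± 0.05. The Sm core genes Snrpg and Snrpd3 fell by 0.36 ± 0.05 and 0.30 ± 0.05, and Fip1l1, a cleavage and polyadenylation factor, rose by 0.27 ± 0.05. Slbp stood at 32.7 and 32.8 FPKM in overexpression, 31.6 and 28.6 in knockdown, and 32.8 and 34.9 in control libraries, and Npat, the coactivator of histone gene transcription, at 7.07 and 6.74 in overexpression, 7.07 and 6.76 in knockdown, and 6.50 and 6.69 in control libraries. Neither was called (knockdown against control, limma, adjusted p = 0.0503 for Slbp and 0.464 for Npat). After median ratio scaling 8 of the 24 (33.3%) were lower and 3 higher, where 21.3% of all genes were lower. After quantile normalization 5 of the 24 (20.8%) were lower and 3 higher, near the 21.4% of all genes called lower. None was called in overexpression against control (limma), where 1.54% of all genes tested were called.

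Of 16 genes of histone mRNA decay, 10 fell in knockdown, 1 rose and 5 were not called, with a median of -0.25, where 31.3% of all genes tested were called lower and 14.8% higher. Lsm7, of the ring that binds the oligo(U) tail added to histone mRNA, stood at 60.8 and 65.7 FPKM in overexpression, 39.9 and 41.0 in knockdown, and 58.7 and 62.4 in control libraries, a fall of 0.57 ± 0.06 (limma, adjusted p = 0.000188). Its partners Lsm2, Lsm3 and Lsm6 fell by 0.50 ± 0.06, 0.39 ± 0.05 and 0.33 ± 0.06, and Zcchc11, a uridylyltransferase, rose by 0.28 ± 0.06. After median ratio scaling 8 of the 16 (50%) were lower and 2 higher, where 21.3% of all genes were lower. After quantile normalization 6 of the 16 (37.5%) were lower and 2 higher, where 21.4% of all genes were lower. None was called in overexpression against control (limma), where 1.54% of all genes tested were called.

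Of 32 histone chaperone and deposition genes, 20 fell in knockdown, none rose and 12 were not called, with a median of -0.22, where 31.3% of all genes tested were called lower. Hira, which lays H3.3 into active chromatin, stood at 11.8 and 11.8 FPKM in overexpression, 7.04 and 7.77 in knockdown, and 12.4 and 12.2 in control libraries, a fall of 0.66 ± 0.06 (limma, adjusted p = 0.000173). Dek, Ruvbl2 of the H2A.Z remodellers and the nucleosome assembly gene Nap1l4 fell by 0.57 ± 0.05, 0.48 ± 0.05 and 0.33 ± 0.05. After median ratio scaling 16 of the 32 (50%) were lower and none higher, where 21.3% of all genes were lower. After quantile normalization 6 of the 32 (18.8%) were lower and none higher, near the 21.4% of all genes called lower. None was called in overexpression against control (limma), where 1.54% of all genes tested were called.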

How the data were processed

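RNA was sequenced from 6 Neuro-2a libraries in 3 groups of 2, taken from the labels. Per the labels' protocols, total RNA went into a stranded poly(A)-selecting kit. The authors deposited FPKM values per gene symbol and library in 1 table of 21878 rows. The build mm10 and the tools DESeq, HTSeq, Cufflinks, HISAT2 and Trimmomatic are named, per the submitters' processing notes. Not given in the sources used here are tool versions, annotation, strand setting and how reads that match several copies were treated. Since FPKM is relative to a library's total, abundant genes that change shift all others. Read counts and depth are unknown, so no counting interval or floor is given. The smallest value above 0 of a replication-dependent gene had a median of 0.215 FPKM over 57 genes, which gives the coarseness of the low values.

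From there, values were transformed as log2(FPKM + 1), and the 10721 genes averaging 1 FPKM or more over 6 libraries were fitted in R 4.3.3 using limma 3.58.1, a mean for each group, empirical Bayes moderation along an expression trend, 3 residual degrees of freedom and Benjamini-Hochberg adjustment over all genes tested. The fit was tested on simulated data. Sums and ratios over members are descriptions with no test. Transcripts came from GENCODE release M 21 and promoters from RefSeq (Python 3.11.15). Every tested member is named, untested members where a group mean reached 0.5 FPKM, and of each side list up to 4 called genes by smallest p in knockdown and 2 in overexpression against control. Slbp, Npat, Fip1l1, Zcchc11, Trim17 and Aifm2 are named outside that rule, after their values were seen. Slbp belongs to 2 lists. The members and lists were chosen with earlier results of these data known. Alternatives tried were other pseudocounts, filters, scalings, no trend, a replicate block, only the libraries of a contrast, and leaving out each library.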

Additional observations from a re-analysis of the deposited data

How the results depend on the processing

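H1fx, H2afy, H2afz, H3f3b and Hist2h2be kept the knockdown call under every alternative that tested them. Hist1h3i, Hist2h2bb and Hist2h4 kept it too, but they passed the filter only through knockdown, so their direction was fixed by being tested. Of the alternatives run, 11 of 16 lost the H3f3a call in overexpression against knockdown and 7 of 16 lost the Hist3h2ba call in overexpression against control. With no filter the knockdown calls of H1f0, H3f3a, Hist1h4k and Hist3h2a were lost (limma, adjusted p = 0.0731, 0.0507, 0.124 and 0.0622). Depth is unknown, most replication-dependent values lie near the smallest values in the table, and near-identical copies limit every level of that class.

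Counts of calls moved as follows, the cause not being tested unless the number of genes or libraries differed. Over all genes in overexpression against control, 9 were called with no filter, 97 with no expression trend, 66 with the replicate block, and 14 to 172 with 1 library left out, in place of 165. Of the replication-dependent members in that comparison, 0 were called with no filter, with no trend or with the block, and 0 to 1 with 1 library left out. Of the variants, H2afy2 was called higher with no filter and with the filter at 0.2 FPKM (limma, adjusted p = 0.042 and 0.0054). H2afy2 passed the filter at 0.2 FPKM only through its overexpression libraries, so their mean had to exceed that of its other libraries. After quantile normalization H3f3b was called lower (limma, adjusted p = 0.0273). In knockdown against control, 13 replication-dependent members were called with no filter, 17 with the filter at 0.2 FPKM and 1 with the filter at 5 FPKM, where more or fewer were tested. In overexpression against knockdown these numbers were 11, 14 and 0, with 2 to 5 when 1 library was left out, and for variants 3 to 7. Members that only the lower filters tested averaged under 1 FPKM. In knockdown against control at 0.2 FPKM, 15.4% of all genes tested were called higher and 27.6% lower. Of the 26 replication-dependent members added there, 9 would not have passed without knockdown. Of the 26, 10 were called higher, and 5 of these were among the 9, whose knockdown mean had to exceed that of their other libraries. The shares of all genes called at the other filters are not given here. Without control 1, control 2, overexpression 1 or overexpression 2 the count over all genes in overexpression against control was 14, 27, 20 or 46.

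The summed replication-dependent level without Hist3h2ba differed by log2 0.13 in overexpression against control, 1.05 in knockdown against control and -0.93 in overexpression against knockdown. The variant sum in knockdown against control was -0.32 after median ratio scaling, -0.25 after quantile normalization and -0.29 without H3f3b, and in overexpression against knockdown 0.12 after quantile normalization.

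Differences that turned direction were all uncalled. With 1 library left out in overexpression against control, H2afv ranged between -0.22 and 0.10, H3f3a between -0.096 and 0.0017, Hist1h3i between -0.025 and 0.53, Hist1h4k between -0.25 and 0.54 (-0.018 after quantile normalization), Hist2h2aa1 between -0.084 and 0.39, Hist2h2be between -0.023 and 0.12, Hist2h4 between -0.15 and 1.10 and Hist3h2a between -0.57 and 0.18. In knockdown against control, H2afj ranged between -0.010 and 0.17, H3f3c between -0.089 and 0.22 and Hist2h2aa1 between -0.34 and 0.13. In overexpression against knockdown, H1f0 ranged between -0.041 and 0.27 (-0.036 after quantile normalization), H2afj between -0.075 and 0.11 (-0.061 after median ratio scaling, -0.096 after quantile normalization), H2afv between -0.059 and 0.26 and Hist1h4i between -0.29 and 0.080. There H2afx was -0.0053 after median ratio scaling and -0.060 after quantile normalization, Hist1h1c -0.027 after median ratio scaling and Hist3h2ba -0.0030 after quantile normalization.

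Whether the replicate numbers pair the libraries is not labelled. Across genes, deviations of same-numbered libraries from their group means correlated at -0.211 for overexpression and knockdown and -0.117 for overexpression and control. For knockdown and control the correlation was 0.00692. With 2 libraries a group these values cannot settle the pairing. With the replicate block, Hist3h2ba in overexpression had an adjusted p of 0.0501 (limma), and Hist2h2bb was called in overexpression against knockdown at 0.04.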

Other observations

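Cenpa, which encodes the centromeric H3 variant and lies outside the symbol rule, stood at 31.6 and 34.4 FPKM in overexpression, 29.0 and 29.1 in knockdown, and 41.3 and 37.8 in control libraries. Control was highest and knockdown lowest, without overlap. It fell by 0.43 ± 0.06 on the log2 scale in knockdown against control (limma, adjusted p = 0.000886), and the -0.25 ± 0.06 in overexpression was not called (adjusted p = 0.0888). Of the other histone-fold genes listed, none passed the filter.

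Of the 11 tested neuroblastoma and sympathetic neuron markers, 1 rose and 6 fell in knockdown against control, with a median of -0.38. Of all genes tested there, 14.8% were called higher and 31.3% lower. In overexpression against control 2 markers fell, where 0.849% of all genes tested were called lower. Tubb3, a neuronal tubulin, fell by 0.65 ± 0.05 in knockdown (limma, adjusted p = 0.000119) and by 0.27 ± 0.05 in overexpression (adjusted p = 0.047). Isl1, a transcription factor of sympathetic neurons, fell by 0.42 ± 0.09 in knockdown and by 0.56 ± 0.09 in overexpression (limma, adjusted p = 0.00436 and 0.0218). Hand2, another such factor, fell by 0.60 ± 0.06 in knockdown, and Chga, a granule protein, by 0.38 ± 0.05 (limma, adjusted p = 0.000223 and 0.00054). Th, the enzyme of catecholamine synthesis, was the riser, with 5.67 and 7.24 FPKM in overexpression, 11.9 and 9.32 in knockdown, and 4.99 and 4.67 in control libraries, a difference of 0.99 ± 0.12 in knockdown (adjusted p = 0.000497).

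The macrophage marker Lyz2 fell by 0.52 ± 0.08 in overexpression and by 0.39 ± 0.08 in knockdown (limma, adjusted p = 0.0187 and 0.00356), with 4.48 and 4.22 FPKM in overexpression, 5.10 and 4.60 in knockdown, and 6.96 and 6.39 in control libraries. The digestive marker Reg3b stood at 0.0677 and 0.310 FPKM in overexpression, was listed at 0 in knockdown and stood at 3.37 and 2.32 in control libraries, a fall of 1.69 ± 0.15 in overexpression (adjusted p = 0.00323).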
